A study of Danio rerio with 50 samples.

Results

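The comparison set 4 arrays of adult male zebrafish liver after 96 h in water with 5 µg/L estradiol against 6 arrays of males kept for the same time at 0.5 µg/L. These 10 arrays were chosen by their titles out of the 50 of the series. Estradiol was the only agent, no strain or fish age is given in the labels, and the descriptions count 6 replicates for 5 µg/L at 96 h, of which 4 are held here. The labels call the samples biological replicates and do not say which fish shared a tank or whether livers were pooled, so p-values measure only the spread between these samples. Each array carried liver RNA of the fish in Cy5 and, in Cy3, 1 common pool of equal amounts of male and female wild-type liver RNA. All values below are log2 ratios of the fish over that pool, or differences of such ratios between doses. The other groups named below are untreated males (8 arrays at 24 h, 7 at 96 h), 0.5 and 5 µg/L at 24 h (6 arrays each) and 50 µg/L (6 arrays at 24 h, 7 at 96 h).

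Estradiol, the main ovarian estrogen, enters liver cells and activates nuclear estrogen receptors. In egg-laying fish this switches on vitellogenins, the lipid-carrying yolk precursors that the liver secretes into the blood. A male liver has the same receptor genes and makes yolk protein when it is given the hormone, and this is widely used as a test for estrogens in water. A cell that exports a large lipoprotein needs amino acids charged onto tRNA, membrane lipids and transport vesicles, and the same hepatocytes also make clotting factors, complement and the enzymes that clear drugs and hormones.

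Of 22046 probes tested with limma, 514 (2.33%) passed an adjusted p under 0.05, of which 279 were higher and 235 lower at 5 µg/L. An unadjusted p under 0.05 was reached by 2397 of the 22046. The tested probes covered 9170 named genes, with 1 probe standing for each; 165 of these genes rose (1.8%) and 126 fell (1.37%). Another 71 of the 514 probes were further probes of named genes, and 152 have no gene name here. Of 8861 named genes with a value on all 10 arrays, 274 (3.09%) had all 4 arrays of 5 µg/L above all 6 of 0.5 µg/L, and 186 (2.1%) had all 4 below. Among the 291 genes that passed, the groups did not overlap for 224. Of the 60 passed genes with more than 1 tested probe, 23 had another probe that passed in the same direction, so the named genes whose probes disagreed are pointed out below.

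Taken in pairs, the 10 arrays had correlations of 0.732 to 0.898 over their probes (a description; probes are not replicates). The share of Cy5 spots above background was 69.8% to 84.9% at 5 µg/L and 77.6% to 92.9% at 0.5 µg/L (exact permutation test, two-sided p = 0.0619; the smallest p that 210 splits allow is 0.00476). Median Cy5 brightness was 315.5 to 573 and 326 to 863 scanner units (exact permutation test, two-sided p = 0.319). Of the hepatocyte markers, 13 were measured, and their mean log2 ratio ran from 0.84 to 1.1 at 5 µg/L and from 1.39 to 2.02 at 0.5 µg/L. In whole liver RNA, fewer cells of a type and less RNA per cell cannot be told apart.

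Pancreas, which lies against the liver in fish, differed between arrays. The mean ratio of 15 exocrine pancreas markers, all digestive enzymes or their regulators, was -0.52, -2.86, -1.01 and -0.42 on replicates 1 to 4 of 5 µg/L and -0.48 to 0.23 at 0.5 µg/L. Replicate 2 of 5 µg/L thus stood far below every other array. Of these markers 14 or 15 lay above background on each array, the exception being ptf1a, a transcription factor of the gland, which was above it on 3 of 4 and 4 of 6 arrays. The list's median difference was -1.16, with 1 of 15 members passing, the starch-digesting amylase gene amy2a (-1.85 ± 0.46 SE, adjusted p = 0.0206). By limma 12 of the 15 had an unadjusted p under 0.05, against 2397 of all 22046 probes. Without replicate 2 of 5 µg/L, or without replicate 4 of 0.5 µg/L, no member passed, while 5 passed without replicate 1 of 5 µg/L and 6 without its replicate 4. The 8 genes listed as endocrine pancreas markers had means of 0.99, -0.30, 0.42 and 0.28 at 5 µg/L and 0.54 to 1.96 at 0.5 µg/L. Their median difference was -1.56, and 5 of the 8 had an unadjusted p under 0.05 by limma. The only one to pass, ppdpfa (-1.53, adjusted p = 0.00139), is a pancreas progenitor gene not specific to endocrine cells. The hormone genes ins (-1.58, adjusted p = 0.263), gcga (-1.72, 0.175) and sst1.1 (-1.89, 0.107) did not pass. Nor did sst2 (-1.66, adjusted p = 0.115) and the transcription factors neurod1 (-0.41), isl1a (-0.01) and pdx1 (0.20). Without replicate 5 of 0.5 µg/L 3 of these markers fell. The part of pancreas tissue in the results below was not tested, and it was replicate 2 of 5 µg/L that stood furthest apart. Without it the 4 exocrine markers with the smallest p still had negative differences. These were -1.27 (amy2a), -0.88 (ela2l), -0.77 (cpb1) and -0.73 (cel.2). For amy2a all 4 arrays of 5 µg/L lay below all those of 0.5 µg/L. Without that array, of the genes named below, mvk, sc5d, cyp51, msmo1, cds2, chka, gpd1b, hars, sars1, slc38a2, copz1, atf6, herpud1, emc4, atp6ap2, eif4a1a, cycsb, fabp10a, crp2, apoc1, cyp3c3, pklr, tat, eci1 and igf1 did not pass, with adjusted p-values of 0.0513 (pklr) to 0.322 (mvk, whose difference went from 1.66 to 1.07). Counts per list without it stand beside the lists below where they moved by over 1.5 times. The tRNA synthetases kept 6 of 8, the amino acid transporters 2 of 3, glycolysis and glycogen 3 of 4, and the apolipoprotein, bile acid and growth factor lists 2 of 3 each. Genes that kept their call without this array could still lose it without another. By limma scd (adjusted p = 0.0581 and 0.105) and serpind1 (0.219 and 0.115) did not pass without replicates 3 and 4 of 5 µg/L. The same held for gpx4b without replicates 1 and 3 of 5 µg/L (adjusted p of 0.14 each). Without replicate 3 of 5 µg/L c3a.2, c8a, c8b, serpinc1, atp6v1ba and lamp2 did not pass by limma either. Their adjusted p-values ran from 0.0604 (c3a.2) to 0.192 (c8a). Without replicate 4 of 5 µg/L c8a, c8b, serpinc1, lamp2, igf2a and cyp4v2a did not pass. Here limma gave adjusted p-values of 0.0505 (lamp2) to 0.1165 (c8a). The call of igf2a was also lost without replicate 1 of 5 µg/L (limma, adjusted p = 0.0635).

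**Figure D1:**
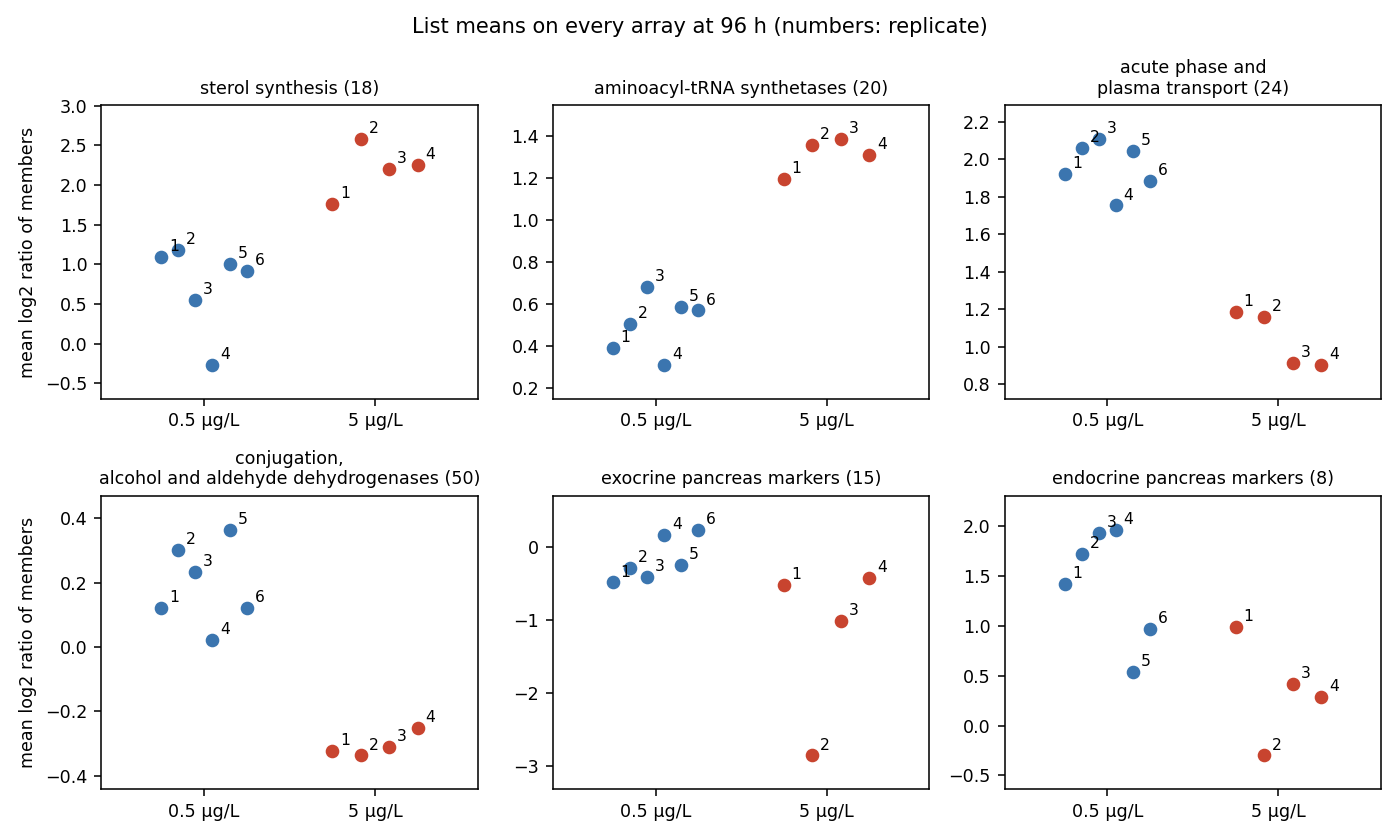
Mean log2 ratio (fish liver over reference pool, y axis) of the measured members of 6 gene lists on each array of 0.5 µg/L (blue) and 5 µg/L (red) at 96 h; numbers in the panels are replicate numbers and those in the titles the members measured. The groups did not overlap in the sterol, tRNA synthetase, acute phase and conjugation panels, and replicate 2 of 5 µg/L was the lowest array in both pancreas panels (-2.86 and -0.30).

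Sterol synthesis, the pathway that builds cholesterol from acetyl-CoA, had the largest share of genes that rose among the lists described. Of 18 measured members 13 rose and none fell, with a median difference of 1.73 against 0.02 over all named genes. The rise spanned the pathway from its first steps (acat2, which joins acetyl-CoA units, and hmgcs1, which makes HMG-CoA) through the mevalonate steps (mvk, mvda, fdps) to the finishing of the sterol ring (cyp51, tm7sf2, msmo1, nsdhl, ebp, sc5d, dhcr7). Of the 17 with a value on all 10 arrays, 10 had all 4 arrays of 5 µg/L above all 6 of 0.5 µg/L. The mean ratio of the list was 1.77, 2.58, 2.2 and 2.26 on the 4 arrays of 5 µg/L and ran from -0.27 to 1.18 at 0.5 µg/L, where replicate 4 was the lowest. Without replicate 2 of 5 µg/L 8 members passed, and with replicate 4 of 0.5 µg/L left out as well 6 did. The list's median difference was then 1.46 in both cases. In both, dhcr7 had too few values at 5 µg/L and was not tested.

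The isomerase gene ebp had ratios of 2.29, 3.24, 3.05 and 3.33 at 5 µg/L and a lowest, median and highest ratio of -1.57, 0.55 and 1.58 at 0.5 µg/L. The groups did not overlap, and ebp rose by 2.67 ± 0.49 (SE), a 6.36-fold difference (adjusted p = 0.000899). HMG-CoA synthase hmgcs1 had 2.93, 3.81, 3.86 and 4.22 at 5 µg/L against -0.45, 1.57 and 2.41 at 0.5 µg/L. It rose by 2.36 ± 0.45 (adjusted p = 0.00117), and its other probe rose by 2.22 ± 0.39. Farnesyl diphosphate synthase fdps had 1.92, 4.03, 4.16 and 4.20 at 5 µg/L against -1.47, 1.48 and 2.33, so replicate 1 of 5 µg/L fell among the arrays of 0.5 µg/L. It rose by 2.53 ± 0.55 (adjusted p = 0.00538) and its other probe by 2.23 ± 0.49.

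Mevalonate decarboxylase mvda rose by 2.31 ± 0.42 (adjusted p = 0.000803) and acat2 by 2.14 ± 0.39 (adjusted p = 0.000784). Lanosterol demethylase cyp51 rose by 2.31 ± 0.54 (adjusted p = 0.0128) and its other probe by 2.66 ± 0.52. The sterol reductase tm7sf2 had ratios of 2.49, 3.67, 3.23 and 3.30 against 1.01, 1.30 and 1.86, without overlap, and rose by 1.79 ± 0.30 (adjusted p = 0.000292). The C-4 demethylation enzyme msmo1 was nearest to the threshold (2.18 ± 0.60, adjusted p = 0.0444). It did not pass with any single array of 5 µg/L left out (adjusted p of 0.0554 to 0.124). Nor did it pass without replicate 3, 4 or 5 of 0.5 µg/L, or with saturated spots left out (adjusted p = 0.0832). The gene cyp51 did not pass without replicate 2 (adjusted p = 0.0762) or replicate 4 (adjusted p = 0.0550) of 5 µg/L. The spot of dhcr7, which makes the last step to cholesterol, had no value on replicate 1 of 5 µg/L; on the other 3 it stood at 3.19, 3.17 and 3.50.

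Not every gene of the pathway moved. The genes of HMG-CoA reductase, the enzyme that sets the pathway's rate, differed by 0.21 ± 0.35 (hmgcra, adjusted p = 0.947) and 0.43 ± 0.19 (hmgcrb, adjusted p = 0.366). The isomerase idi1 (0.16 ± 0.17), the reductase lbr (-0.25 ± 0.25) and the sterol carrier stard4 (-0.13 ± 0.18) did not pass either. The probe of hmgcra had 0.63 to 0.92 at 5 µg/L against -0.32 to 1.4 at 0.5 µg/L. The ER protein insig1, which holds back the sterol-sensing machinery and is itself a sterol-regulated gene in mammals, rose by 1.66 ± 0.27 (adjusted p = 0.000171), with 1.89, 2.40, 1.73 and 1.22 against -0.31, 0.13 and 0.67, and its other probe rose by 1.41 ± 0.29.

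**Figure D2:**
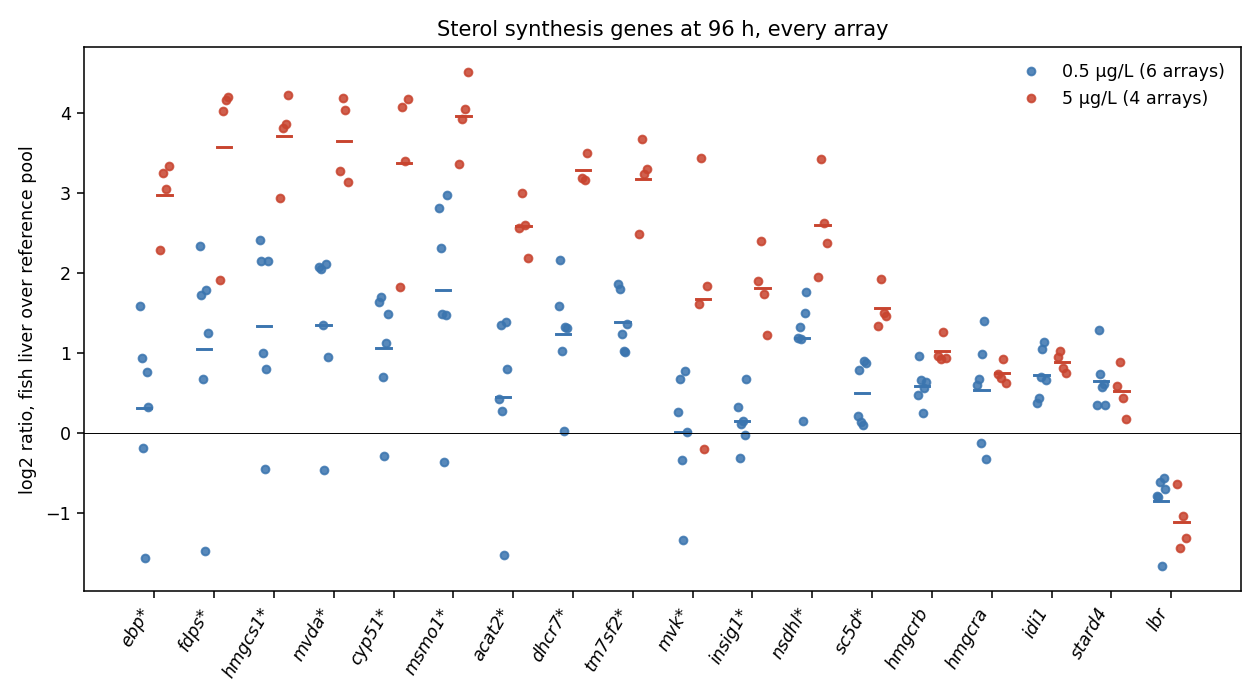
Log2 ratio (fish liver over reference pool, y axis) of 18 sterol synthesis genes on every array of 0.5 µg/L (blue, 6 arrays) and 5 µg/L (red, 4 arrays; 3 for dhcr7) at 96 h; lines are group means and an asterisk marks an adjusted p under 0.05. The 13 genes with an asterisk have the red mean above the blue one, as for ebp (2.98 against 0.31), with overlap of the arrays for fdps and mvk; hmgcra, hmgcrb, idi1, stard4 and lbr carry no asterisk and their arrays overlap.

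Genes of the lipids next to sterols moved in part. The 3 that rose among 18 of phospholipid synthesis were pisd, cds2 and chka, and the glycerol phosphate dehydrogenase gpd1b fell (-1.33 ± 0.32, adjusted p = 0.0154). The largest rise of any named gene was that of pisd, the mitochondrial enzyme that turns phosphatidylserine into phosphatidylethanolamine. Its ratios were 4.96, 5.16, 5.11 and 3.73 at 5 µg/L against 0.46, 1.16 and 2.59 at 0.5 µg/L, without overlap, a rise of 3.31 ± 0.43 or 9.90-fold (adjusted p = 6.18e-06). The CDP-diacylglycerol synthase cds2 rose by 1.34 ± 0.33 (adjusted p = 0.0171) and choline kinase chka by 1.25 ± 0.32 (adjusted p = 0.0282). In this list 1 member rose without replicate 2 and 1 without replicate 3 of 5 µg/L, and none fell in either case.

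Of 30 genes of fatty acid and triglyceride synthesis 3 rose and 2 fell, and 5 rose without replicate 6 of 0.5 µg/L. The acyl-CoA synthetases acsl4a (1.98 ± 0.29, adjusted p = 5.62e-05) and acsl1b (1.51 ± 0.24, adjusted p = 0.000171) rose, as did the stearoyl-CoA desaturase scd (2.21 ± 0.56, adjusted p = 0.0249). Of the other probes of acsl4a, 1 rose by 1.91 ± 0.29 and 1 did not pass (1.96 ± 0.57, adjusted p = 0.0596), and the other probe of scd rose by 2.07 ± 0.51. The last enzyme of triglyceride synthesis, dgat2, fell with no overlap, from 0.29, 0.44 and 0.55 at 0.5 µg/L to -0.95, -0.61, -0.66 and -0.91 at 5 µg/L (-1.21 ± 0.23, adjusted p = 0.00116). The elongation enzyme hacd2 fell by 1.11 on the log2 scale (SE 0.22, adjusted p = 0.00190). The acetoacetyl-CoA synthetase aacs, which feeds ketone bodies into lipid synthesis, rose by 2.26 ± 0.36 (adjusted p = 0.000129).

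Some genes that supply protein synthesis rose. Of 20 aminoacyl-tRNA synthetase genes and their scaffold proteins, whose enzymes charge tRNAs with amino acids, 8 rose and none fell, with a median difference of 0.78. The mean ratio of the list was 1.19 to 1.38 on the arrays of 5 µg/L and 0.31 to 0.68 at 0.5 µg/L. The 8 were tars1, eprs1, wars1, farsa, cars1, qars1, hars and sars1. For threonyl-tRNA synthetase tars1 the ratios were 1.70, 1.72, 2.15 and 1.83 against -0.52, 0.12 and 0.43, without overlap. This gave a rise of 1.81 ± 0.19 or 3.50-fold (adjusted p = 2.93e-07) for the brighter probe, while its other probe gave -0.19 ± 0.28. The same split held for farsa (1.13 ± 0.21, other probe -0.19 ± 0.20). The synthetases eprs1 (1.18 ± 0.17, adjusted p = 3.02e-05) and wars1 (1.44 ± 0.24, adjusted p = 0.000199) rested on 1 probe each.

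Of 16 amino acid transporters 3 rose and none fell. The transporter of large neutral amino acids slc43a1a had 2.40, 2.78, 2.55 and 2.19 against -0.25, 0.29 and 0.47, without overlap (2.3 ± 0.29, adjusted p = 3.56e-06), and its other probe rose by 2.18 ± 0.26. The heavy chain slc3a2b, which brings such transporters to the membrane, rose by 1.30 ± 0.30 (adjusted p = 0.0104), and slc38a2, a carrier of small neutral amino acids, by 0.96 ± 0.27 (adjusted p = 0.0448). The list's median was 0.13, and slc1a4 (0.58 ± 0.23, adjusted p = 0.239) did not pass. Among 23 genes of methionine and 1-carbon metabolism, which makes methyl groups for phosphatidylcholine and creatine, 5 rose and 2 fell. The methionine adenosyltransferases mat2aa (1.6 ± 0.31, adjusted p = 0.00158) and mat2ab (1.33 ± 0.27, adjusted p = 0.00247) and the mitochondrial folate enzyme mthfd1l (2.02 ± 0.34, adjusted p = 0.000266) were among the rises. For mat2aa the highest array of 0.5 µg/L (replicate 6, 3.07) lay within the 2.58 to 3.12 of 5 µg/L. Other probes of mat2aa (0.13 and -0.19) and mthfd1l (-0.10) did not pass. At 5 µg/L the mat2aa probe with -0.19 lay above background on 1 of 4 arrays, and that of mthfd1l on 2.

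The creatine synthesis enzyme gatm fell from 0.14, 2.39 and 3.08 at 0.5 µg/L to -1.16, -0.72, -0.62 and -1.21 at 5 µg/L. The groups did not overlap, and the difference was -2.90 ± 0.41, or 7.47-fold (adjusted p = 2.45e-05); its other, dimmer probe gave 0.10 ± 0.26. In the methionine list 1 member fell without replicate 3 of 0.5 µg/L, and 1 without each of replicates 2, 3 and 4 of 5 µg/L.

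Of 56 genes of the route between the endoplasmic reticulum (ER) and the Golgi, 10 rose and none fell, with a median difference of 0.51. The list mean was 0.50 to 0.89 on arrays of 5 µg/L and -0.10 to 0.47 at 0.5 µg/L. The cargo receptor lman1, which carries glycoproteins out of the ER, rose by 1.21 ± 0.23 (adjusted p = 0.00156) with 2.82, 2.41, 2.76 and 2.45 against 0.79, 1.31 and 2.04. The small GTPases arf5 (1.39 ± 0.27, adjusted p = 0.00146) and rab1ab (1.14 ± 0.20, adjusted p = 0.000452) and the coat subunit copz1 (0.78 ± 0.19, adjusted p = 0.0206) also rose, the groups not overlapping for any of the 4. The count depended on single arrays: 4, 6 or 3 members passed without replicate 1, 3 or 4 of 0.5 µg/L, and 4 without each of replicates 1, 2 and 3 of 5 µg/L, while the median lay between 0.43 and 0.58 over all 10 such settings.

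Of 24 genes of the unfolded protein response and ER degradation, which match folding capacity to load, 4 rose and none fell, with a median of 0.50. The transcription factor xbp1, a central switch of that response, had 2.86, 2.32, 2.34 and 2.32 against 0.63, 0.95 and 1.15, without overlap, and rose by 1.52 ± 0.20 (adjusted p = 1.02e-05). The stress transcription factors atf4b (1.14 ± 0.26, adjusted p = 0.00837) and atf6 (0.77 ± 0.20, adjusted p = 0.0322) and the degradation factor herpud1 (0.72 ± 0.19, adjusted p = 0.0308) rose less. In this list 2 members passed without replicate 1, 3 or 4 of 0.5 µg/L or replicate 2 of 5 µg/L. The ER membrane gene rtn1, which shapes tubules, rose by 2.55 ± 0.42 (5.88-fold, adjusted p = 0.000231) with 4.98, 3.98, 4.41 and 4.28 against 0.36, 1.77 and 3.66. Between these doses none of 32 ER chaperones passed by limma (median 0.16, with 8 at an unadjusted p under 0.05). Nor did any of 29 N-glycosylation genes (median 0.10, with 4 at that level). Over all probes, 2397 of 22046 were at that level. Leaving out replicate 2 or 5 of 0.5 µg/L, 1 chaperone passed, and 1 glycosylation gene did without replicate 5. Of 25 ER translocation genes 1 rose, the membrane-insertion subunit emc4 (0.63 ± 0.18, adjusted p = 0.0478). None passed without replicate 1, 2, 3 or 4 of 0.5 µg/L or replicate 1, 2 or 3 of 5 µg/L, and 2 did without replicate 6 of 0.5 µg/L. Against untreated males at 96 h, from the authors' log2 ratios, 10 chaperones, 12 glycosylation and 18 translocation genes were higher at 5 µg/L. At that dose 2, 1 and 0 were lower. The counts higher at 0.5 µg/L were 4, 4 and 7. Over all named genes, 9.84% were higher and 5.42% lower at 5 µg/L, and 2.64% were higher at 0.5 µg/L.

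Of 33 lysosome genes 5 rose and none fell, with a median of 0.40. The peptidase tpp1 rose by 1.45 ± 0.29 (adjusted p = 0.00201), the proton pump subunits atp6v1ba by 1.11 ± 0.25 (adjusted p = 0.00725) and atp6ap2 by 0.85 ± 0.22 (adjusted p = 0.0242), and the membrane protein lamp2 by 0.97 ± 0.25 (adjusted p = 0.0247). The other 3 probes of lamp2 did not pass (0.95, 0.11 and 0.00). The autophagy receptor sqstm1 rose by 2.33 ± 0.52 (adjusted p = 0.00748) with 1.13, 1.16, 2.27 and 2.98 against -0.76, -0.63 and 0.62. Without replicate 1, 2 or 3 of 5 µg/L the lysosome count was 3, 3 and 1.

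Several lists of hepatocyte products held genes that fell. Of 24 acute phase and plasma transport proteins, 8 fell and none rose, with a median difference of -0.93. Their mean ratio was 0.90 to 1.19 at 5 µg/L and 1.75 to 2.11 at 0.5 µg/L. The largest fall of any named gene was that of hpxa, hemopexin, which binds free heme in plasma. It stood at -3.36, -3.78, -3.62 and -4.09 at 5 µg/L and at a lowest, median and highest of -2.23, 0.83 and 1.17 at 0.5 µg/L, without overlap. The difference was -4.07 ± 0.74, 16.8-fold (adjusted p = 0.000764), and -4.05 without replicate 2 of 5 µg/L. Haptoglobin hp, which binds free hemoglobin, stood at 0.18, 1.53, 0.83 and 1.47 against 2.60, 2.96 and 3.47 (-1.96 ± 0.42, adjusted p = 0.00439).

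The selenium carrier selenop2 (-1.65 ± 0.28, adjusted p = 0.000387) and the tryptophan-degrading enzyme tdo2a (-0.98 ± 0.21, adjusted p = 0.00439) fell without overlap of the groups. The liver fatty acid binding protein fabp10a, a defining hepatocyte gene in zebrafish, stood at -2.33, -2.46, -0.51 and -1.72 against -0.37, 0.68 and 1.74 (-2.39 ± 0.61, adjusted p = 0.0249; adjusted p = 0.116 without replicate 2 of 5 µg/L). For crp2, a pentraxin, the difference was -2.14 ± 0.54 (adjusted p = 0.0211), while its 2 other probes gave -0.39 and 0.24 and did not pass. With saturated spots left out, the crp2 probe used gave -2.09 and did not pass (adjusted p = 0.0510). In the plasma list 5 members fell without replicate 3 of 0.5 µg/L, or without replicate 2 or 3 of 5 µg/L, and 1 rose without replicate 6 of 0.5 µg/L.

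Of 21 complement genes 4 fell and none rose (median -0.55). The pore-forming component c9 had 0.33, 1.23, -1.25 and -0.35 against 1.77, 2.24 and 3.28, without overlap (-2.41 ± 0.42, adjusted p = 0.000396), and its other probe fell as well (-2.16 ± 0.42). These probes were saturated on 1 and 2 of the 6 arrays of 0.5 µg/L, so both sizes are uncertain. The central component c3a.2 fell (-2.06 ± 0.43, adjusted p = 0.00356; other probe -3.10 ± 0.39), as did c8a (-1.13 ± 0.29) and c8b (-1.30 ± 0.34), both with an adjusted p of 0.0286. Of 19 genes of coagulation and fibrinolysis 6 fell and none rose (median -0.57), among them the clotting factor VII relative f7i (-1.77 ± 0.31, adjusted p = 0.000522), the carboxypeptidase cpb2 (-1.59 ± 0.32, adjusted p = 0.00217), antithrombin serpinc1 (-1.06 ± 0.26, adjusted p = 0.0159; other probe -1.17 ± 0.29) and heparin cofactor serpind1 (-1.18 ± 0.32, adjusted p = 0.0379). The complement count was 2 without replicate 5 of 0.5 µg/L, and 1 and 2 without replicates 3 and 4 of 5 µg/L. That of coagulation was 3 without replicate 2 or 3 of 0.5 µg/L or replicate 3 of 5 µg/L, and 2 without replicate 4 of 5 µg/L.

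Among 17 apolipoproteins and lipid transfer genes, 3 fell and none rose (median -0.12). The lipase cofactor apoc2 stood at -0.14, -0.20, 0.40 and 0.51 against 1.42, 1.67 and 1.96 (-1.53 ± 0.28, adjusted p = 0.000886), although its other probe gave -0.13 ± 0.26, and apom, an HDL protein, fell with no overlap (-1.29 ± 0.26, adjusted p = 0.00194). The other apoc2 probe lay above background on 2 of 4 arrays of 5 µg/L. The third gene that fell, apoc1, had its Cy5 spot saturated on all 10 arrays, so no size is given. For apobb.1, the structural protein of secreted lipoprotein, the probe used had -1.10 ± 0.32 (adjusted p = 0.0604), and of its other 2 probes 1 fell (-1.35 ± 0.36, adjusted p = 0.0308).

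Some enzymes that clear foreign compounds and hormones fell. Of 50 genes of conjugation and of alcohol and aldehyde dehydrogenases, 13 fell and none rose, with a median of -0.31. The list mean was -0.34 to -0.25 on the arrays of 5 µg/L and 0.02 to 0.36 at 0.5 µg/L. The methyltransferase relative comtd1 stood at -1.08, -0.02, -0.98 and -0.95 against 1.73, 1.88 and 2.97, without overlap (-2.86 ± 0.32, 7.24-fold, adjusted p = 8.63e-07). The alcohol dehydrogenase adh8a (-2.35 ± 0.45, adjusted p = 0.00155; other probe -0.33 ± 0.28) and the aldehyde dehydrogenases aldh2 (-1.44 ± 0.23, adjusted p = 0.000151) and aldh2.2 (-1.05 ± 0.19, adjusted p = 0.000610) fell. Without replicate 1, 2 or 3 of 5 µg/L 7, 6 and 8 members passed.

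Of 41 cytochrome P450 genes 4 fell and 1 rose (median -0.19). The enzyme that oxidises planar aromatics, cyp1a, stood at 0.33, 0.46, -1.10 and -0.83 against 1.56, 1.78 and 2.04, without overlap (-2.09 ± 0.28, adjusted p = 1.02e-05). The fish P450 cyp2n13 (-1.64 ± 0.28, adjusted p = 0.000309) and the fatty acid hydroxylase cyp4v2a (-1.51 ± 0.33, adjusted p = 0.00618) fell, and cyp3c3 rose (0.87 ± 0.20, adjusted p = 0.0112). Without replicate 4 of 5 µg/L 2 fell. The single rise was lost without replicate 2 of 5 µg/L, and 2 rose without replicate 2 of 0.5 µg/L. In the bile acid and hepatic transport list 3 of 13 fell: fabp10a, the bile acid hydroxylase cyp8b1.1 (-1.46 ± 0.25, adjusted p = 0.000380) and the fatty acid and bile acid CoA ligase slc27a2a (-1.99 ± 0.27, adjusted p = 1.36e-05); cyp27a1.4 (-0.72 ± 0.24, adjusted p = 0.119) did not pass.

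Carbohydrate and amino acid enzymes fell in part. Glucose and glycogen metabolism had 4 genes of 40 that fell and none that rose (median -0.23). The liver glycogen phosphorylase pygl, which releases glucose from glycogen, stood at -0.50, -1.03, -0.55 and -0.30 against 1.22, 1.36 and 1.76 (-2.01 ± 0.26, adjusted p = 4.02e-06). The phosphoglucomutase pgm1 (-1.64 ± 0.26, adjusted p = 0.000169), glycogen synthase gys2 (-1.29 ± 0.24, adjusted p = 0.000802) and pyruvate kinase pklr (-1.33 ± 0.33, adjusted p = 0.0204) also fell, all without overlap.

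Among 52 genes for breaking down amino acids and making urea, 6 fell and 1 rose (median -0.24). The glyoxylate aminotransferase agxtb stood at 0.74, 0.99, 0.63 and 0.64 against 2.24, 2.35 and 2.90 (-1.68 ± 0.22, adjusted p = 5.30e-06). The tyrosine pathway enzymes hgd (-1.56 ± 0.28, adjusted p = 0.000598) and gstz1 (-1.42 ± 0.28, adjusted p = 0.00177) and the histidine enzyme ftcd (-1.34 ± 0.24, adjusted p = 0.000665) fell. The other probe of ftcd, below background on all arrays of 5 µg/L, gave 0.08. The rise was in tat, the first enzyme of tyrosine breakdown (1.61 ± 0.38, adjusted p = 0.0120). It was lost without replicate 2 of 5 µg/L, and 3, 2 and 2 members rose without replicates 2 and 3 of 0.5 µg/L and replicate 4 of 5 µg/L. In fatty acid oxidation 2 of 29 fell, decr1 (-1.39 ± 0.29, adjusted p = 0.00389; other probe -0.08) and eci1 (-0.91 ± 0.24, adjusted p = 0.0295), while hadh (-0.76 ± 0.22, adjusted p = 0.0532) and ehhadh (-0.66 ± 0.26, adjusted p = 0.248) did not pass. One of these members passed without replicate 2, 3, 5 or 6 of 0.5 µg/L, or replicate 1, 2 or 3 of 5 µg/L.

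Of 13 genes of the somatotropic axis (growth hormone signalling and IGFs), 3 fell and none rose, although the median was 0.16. The liver growth factor igf1 stood at 0.52, 0.12, 0.11 and 0.29 against 0.93, 1.41 and 2.97, without overlap (-1.31 ± 0.32, adjusted p = 0.0158; 0.0608 without replicate 2 of 5 µg/L). The related igf2a (-1.13 ± 0.27, adjusted p = 0.0142) and the binding protein igfbp2a (-1.38 ± 0.26, adjusted p = 0.00103) fell, and igf2b (-0.64 ± 0.22, adjusted p = 0.156) did not pass. Of 31 genes of oxidative stress defence 3 rose and none fell (median -0.05): sqstm1, the pentose phosphate enzyme pgd (1.38 ± 0.26, adjusted p = 0.00103) and the peroxidase gpx4b (0.85 ± 0.22, adjusted p = 0.0297). Without replicate 2 of 0.5 µg/L 1 member fell. The heme synthesis enzyme urod rose (1.31 ± 0.28, adjusted p = 0.00439) in a list of 22 heme and iron genes, where hpxa and hp fell.

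**Figure D3:**
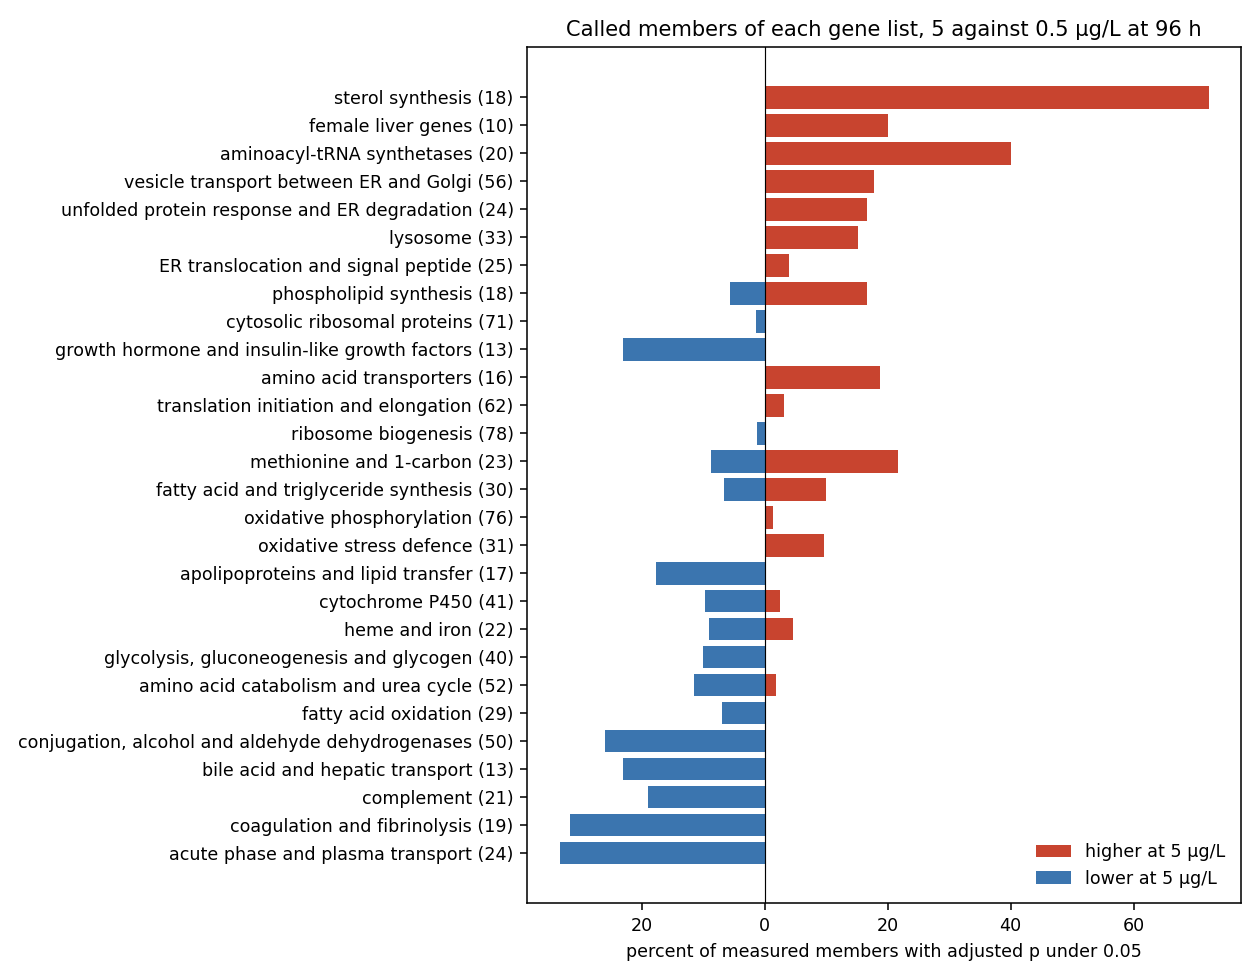
Percent of the measured members of each list (x axis; number measured in brackets) that were higher (red, to the right) or lower (blue, to the left) at 5 than at 0.5 µg/L at 96 h with an adjusted p under 0.05, for the 28 lists of function with at least 1 such member, ordered by median difference. Sterol synthesis (13 of 18) and tRNA synthetases (8 of 20) lead the rises, and acute phase proteins (8 of 24) and coagulation (6 of 19) the falls, against 1.8% and 1.37% of all named genes.

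The remaining large falls were single genes. The matrix protein tgfbi stood at -1.96, -2.65, -1.95 and -1.75 against -0.04, 0.99 and 1.25 (-2.84 ± 0.31, adjusted p = 6.20e-07), and both of its other probes fell (-1.46 and -2.26). The deiodinase dio2, which activates thyroid hormone, stood at 0.03, -0.55, 1.2 and 0.47 against 2.40, 2.66 and 2.98 (-2.38 ± 0.37, adjusted p = 8.47e-05), while its other probe, below background on all arrays of 5 µg/L, gave 0.07. The gene ppdpfb, a relative of ppdpfa of the pancreas lists, stood at 0.50, -1.93, -0.00 and 1.46 against 1.97, 2.46 and 2.74. Its difference was -2.42 ± 0.42, and -1.77 without replicate 2 of 5 µg/L, the array on which it was lowest. The probes standing for the ribosomal protein gene rps6 (-2.36 ± 0.26) and for the ribosome assembly gene pno1 fell, but 2 other probes of rps6 gave 0.01 and -0.17 and another of pno1 gave 0.04. The rps6 probe with 0.01 lay above background on 2 of 4 arrays of 5 µg/L. The pno1 probe that fell was saturated on 4 of the 6 arrays of 0.5 µg/L, so its fitted size (-2.61) is uncertain. No other member of the 71 cytosolic ribosomal protein genes (median 0.24) or the 78 ribosome biogenesis genes (median 0.06) passed.

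Other parts of the cell's machinery showed few calls or none. Of 62 genes of translation initiation and elongation, the initiation factors eif2b1 (0.93 ± 0.17, adjusted p = 0.000833) and eif4a1a (0.76 ± 0.20, adjusted p = 0.0295) rose; 1 of them passed without replicate 2 or 5 of 0.5 µg/L or replicate 1, 3 or 4 of 5 µg/L. Of 76 genes of oxidative phosphorylation, cytochrome c gene cycsb rose (0.92 ± 0.25, adjusted p = 0.0374), and it did not pass without replicate 2, 4 or 5 of 0.5 µg/L or replicate 2, 3 or 4 of 5 µg/L. By limma no gene passed among 55 of the proteasome (median 0.28; 14 at an unadjusted p under 0.05), 68 of DNA replication and mitosis (median -0.41; 9 at that level), 70 of RNA splicing (2 at that level), 22 of antigen presentation (4) or 12 of the egg coat (0). These counts stand beside 2397 of all 22046 probes at that level. In DNA replication 1 gene fell without replicate 4 of either group. Markers of endothelium, testis, intestine, skeletal muscle, ovary, bile duct cells, erythrocytes, stellate cells and lymphocytes, 4 to 18 genes each, held no gene that passed. Those of macrophages and neutrophils held only apoc1, whose Cy5 spot was saturated on every array of the comparison, as given above.

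**Figure D4:**
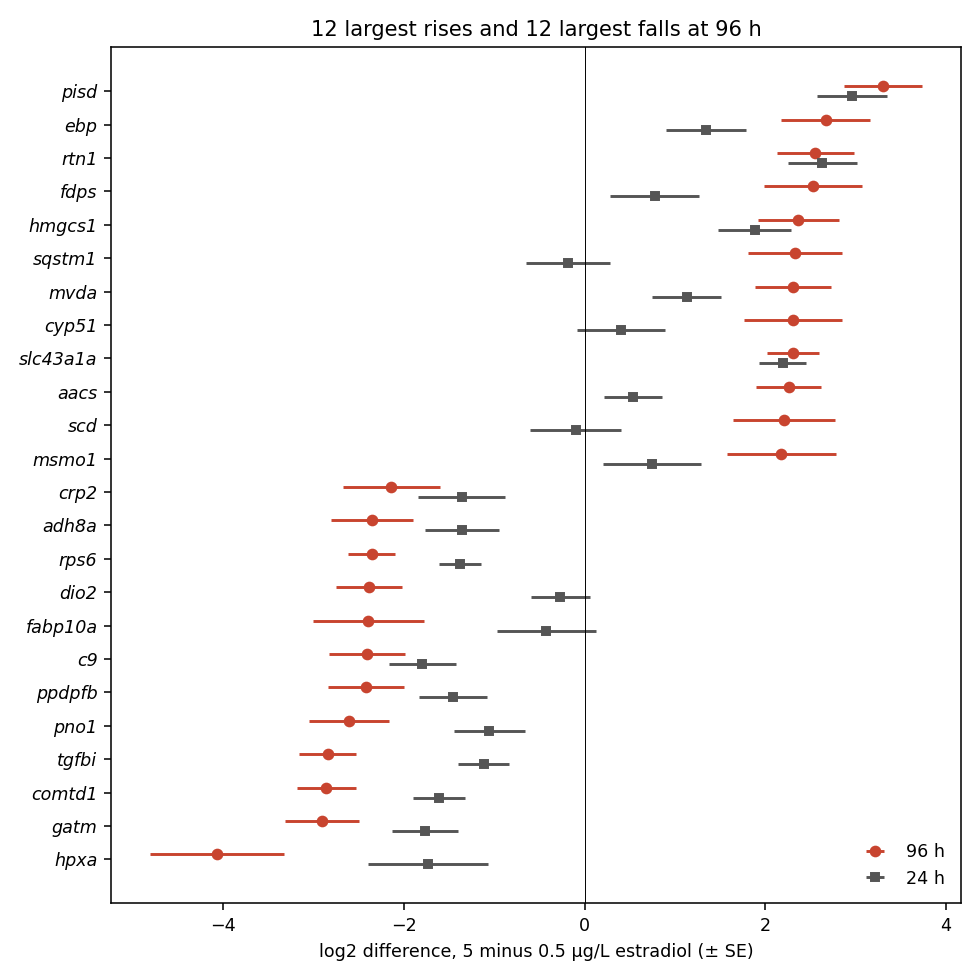
Log2 difference between 5 and 0.5 µg/L (x axis, ± SE of the fit) of the 12 named genes with the largest rises and the 12 with the largest falls at 96 h (red circles), with the difference of the same probes at 24 h (grey squares). The largest rise was pisd (3.31) and the largest fall hpxa (-4.07); pno1 was saturated on 4 of 6 arrays of 0.5 µg/L, and at 24 h pisd and rtn1 differed by 2.96 and 2.63, and fabp10a and dio2 by -0.42 and -0.27.

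No vitellogenin or estrogen receptor passed the test between the doses at 96 h. None of 6 vitellogenin genes passed (1 at an unadjusted p under 0.05), and 1 passed without replicate 2 of 0.5 µg/L. The yolk gene vtg7 stood at 4.41, 4.99, 4.08 and 3.07 against 2.3, 2.91 and 3.95 (1.15 ± 0.63, adjusted p = 0.550), the groups overlapping. The yolk gene vtg3 gives no size here, because the Cy5 spot of the probe used was saturated on all 10 arrays. Of its 14 other probes 13 were saturated on all 10 and 1 on 9. The yolk genes vtg2 (0.57 ± 0.17, adjusted p = 0.0797), vtg4 (-0.15 ± 0.22), vtg5 (0.24 ± 0.22) and vtg6 (0.06 ± 0.20) did not pass, and vtg6 lay above background on 1 of 4 and 4 of 6 arrays. The receptor esr1, which is itself estrogen-induced in fish liver, stood at 4.24, 4.54, 3.87 and 2.16 against 2.14, 2.68 and 3.30 (0.98 ± 0.39, adjusted p = 0.256). In the list of 6 receptors and partner genes none passed, and 1 did without replicate 4 of 5 µg/L, the array on which esr1 was lowest. The receptors esr2a (-0.41 ± 0.24, adjusted p = 0.622) and esr2b (-0.39 ± 0.32, adjusted p = 0.813) did not pass. Among 10 genes listed as female liver or estrogen-induced genes, a list chosen on results of these data, rtn1 and lman1 rose. The aspartic protease nots (1.24 ± 0.37, adjusted p = 0.0663) and the transcription factor pax9 (1.64 ± 0.49, adjusted p = 0.0687) did not pass. Against untreated males at 96 h, from the authors' log2 ratios, 2 of 6 vitellogenins were higher at 0.5 µg/L and 3 at 5 µg/L. These 6 include the saturated vtg3. In the receptor list 1 gene was higher at each of these doses, and 1 was lower at 5 µg/L. Over all named genes, 2.64% were higher at 0.5 µg/L, and 9.84% were higher and 5.42% lower at 5 µg/L. Of the 10 female liver genes 7 were higher at 0.5 µg/L (median 2.64) and 8 at 5 µg/L (median 3.56). Because this list was chosen on these data, its counts are no independent evidence of a response.

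At 24 h the same pair of doses gave 291 named genes higher (3.17%) and 135 lower (1.47%). The comparisons at 24 and 96 h used different arrays. Replicate 2 of 0.5 µg/L at 24 h stood apart, with a correlation of 0.586 with the mean of its group, against 0.844 to 0.931 for the other 5. Without it, by a choice made after seeing the data, 373 genes were higher and 256 lower at 24 h, 52 and 80 of them at both times. Over all 12 arrays of these doses at 24 h left out in turn, 201 to 373 were higher and 72 to 256 lower; the lower count moved by over 1.5 times without replicates 3 (85) and 4 (72) of 0.5 µg/L and replicate 5 of 5 µg/L (83), beside replicate 2. Of the genes that rose at 96 h 45 also rose at 24 h, which is 27.3% of the 96 h list and 15.5% of the 24 h list. Of those that fell 47 also fell at 24 h, 37.3% and 34.8% of the lists, and no gene passed in opposite directions; the count of 47 was 29 without replicate 4 of 0.5 µg/L and 31 without replicate 5 of 5 µg/L at 24 h. At 24 h, vtg7 rose by 3.56 ± 0.56 (adjusted p = 7.90e-05) and esr1 by 3.27 ± 0.35 (adjusted p = 1.36e-07) between the doses; without replicate 2 of 0.5 µg/L these were 4.19 and 3.31, and both passed whichever array was left out. In sterol synthesis 2 of 18 members rose at 24 h (median 0.46; 1 to 4 with 1 array left out), against 10 of 20 tRNA synthetases (median 0.68). In ribosome biogenesis 28 of 78 rose at 24 h (median 0.55) and none at 96 h. No member of that list passed the test between times given below. Against untreated males at 96 h, from the authors' log2 ratios, 21 members were higher and 0 lower at 0.5 µg/L (median 0.45). At 5 µg/L 37 were higher and 1 lower (median 0.57). Over all named genes, 2.64% were higher and 1.11% lower at 0.5 µg/L, and 9.84% and 5.42% at 5 µg/L.

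Whether the dose step itself differed between the times was tested in the same fit, and 25 of 22046 probes passed (0.113%), 8 with a larger and 17 with a smaller difference at 96 h. Named genes in the first direction were aclya, which makes cytosolic acetyl-CoA (difference between times 2.43, adjusted p = 0.0262), the ferritin gene fthl31 (1.92, adjusted p = 0.0355), the cell-surface proteoglycan sdc4 (1.59, adjusted p = 0.0262) and lamp2 (1.54, adjusted p = 0.0454). For aclya the dose difference was -1.48 ± 0.31 at 24 h and 0.96 ± 0.35 at 96 h. In the other direction were the P450 cyp2k6 (-3.02, adjusted p = 0.0355), the folding enzyme fkbp11 (-2.75, adjusted p = 0.0262) and the replication gene mcm3 (-2.55, adjusted p = 0.0481). For fkbp11 the dose difference was 2.88 ± 0.35 at 24 h and 0.13 ± 0.39 at 96 h. No sterol gene passed this test, with tm7sf2 (1.76) and insig1 (1.55) nearest at adjusted p-values of 0.0620 and 0.0622. The differences of esr1 (-2.29, adjusted p = 0.0599) and vtg7 (-2.41, adjusted p = 0.474) did not pass. The count ranged from 2 to 43 when 1 array of the 96 h groups was left out: it was 13, 3, 3 and 8 without replicates 1, 3, 5 and 6 of 0.5 µg/L, 43 without its replicate 2, and 2, 2 and 9 without replicates 2, 3 and 4 of 5 µg/L. With 1 array at 24 h left out it was 4 to 76: 12, 76, 4 and 12 without replicates 1, 2, 3 and 4 of 0.5 µg/L, and 16, 12, 13 and 4 without replicates 1, 2, 4 and 5 of 5 µg/L. Without replicate 2 of 0.5 µg/L at 24 h, the array that stood apart, esr1 (-2.33, adjusted p = 0.0393), vtg7 (-3.04, adjusted p = 0.0386), tm7sf2 (1.88, adjusted p = 0.0236) and insig1 (1.63, adjusted p = 0.0321) also passed. None of the genes named above as past this test with all arrays passed in every fit with 1 array at 24 h left out.

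Against untreated males at 96 h, from the authors' log2 ratios, 242 named genes were higher (2.64%) and 102 lower (1.11%) at 0.5 µg/L, and 902 higher (9.84%) and 497 lower (5.42%) at 5 µg/L. These comparisons share the control arrays, and each shares its treated arrays with the comparison of doses, so only values are set side by side. In sterol synthesis none of 18 genes passed at 0.5 µg/L (median -0.35) and 12 rose at 5 µg/L (median 1.29). The deposited ratio of ebp was 1.72 ± 0.76 (SD, n = 7) in controls, 0.33 ± 1.07 (n = 6) at 0.5 µg/L, 2.94 ± 0.48 (n = 4) at 5 µg/L and 2.40 ± 0.86 (n = 7) at 50 µg/L; ebp did not pass against controls at 0.5 (adjusted p = 0.0701) or 5 µg/L (adjusted p = 0.104). The groups of hmgcs1 stood at 1.70 ± 0.96, 1.32 ± 1.08, 3.65 ± 0.55 and 3.46 ± 0.50 in the same order.

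For pisd the means were 1.2 ± 0.64 and 1.41 ± 0.87 in controls and at 0.5 µg/L and 4.71 ± 0.72 and 4.33 ± 0.60 at 5 and 50 µg/L, and no array of the former groups reached those of the latter. The plasma gene hpxa went from 2.49 ± 0.72 in controls to 0.35 ± 1.24, -3.61 ± 0.26 and -2.55 ± 1.64. Both doses fell below controls for hpxa (-2.14 ± 0.58, adjusted p = 0.0276, and -6.09 ± 0.66, adjusted p = 5.32e-10). For igf1 the means were 2.16 ± 0.57, 1.52 ± 0.78, 0.21 ± 0.19 and 0.24 ± 0.14, and cyp1a stood at 2.82 ± 0.73, 1.77 ± 0.23, -0.22 ± 0.75 and -0.94 ± 0.39. The exocrine pancreas markers, by contrast, had medians of 1.00 and -0.23 against controls at 0.5 and 5 µg/L, with no member passing at either dose, and amy2a differed from controls by 0.67 (adjusted p = 0.514) and -1.13 (adjusted p = 0.148).

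Between 50 and 5 µg/L at 96 h, a comparison that shares the 4 arrays of 5 µg/L, limma called no probe of 22046, while 953 had an unadjusted p under 0.05. The differences of the leading genes were -0.28 ± 0.42 for pisd, -0.18 ± 0.43 for hmgcs1, -0.52 ± 0.48 for ebp, -0.06 ± 0.18 for the brighter tars1 probe and 0.99 ± 0.72 for hpxa. Of the arrays of 50 µg/L, 3 at 24 h and 2 at 96 h had a low share of Cy5 spots above background, 25.7% to 57.0%. They enter the comparison of 5 with 0.5 µg/L through the shared estimate of the spread and through the choice of probes tested. Without them 21205 probes were tested and 563 passed in the comparison of 5 with 0.5 µg/L. The 2 weak arrays at 96 h are also part of the comparison of 50 with 5 µg/L. No count without them is given for it, so its lack of calls rests in part on weak arrays.

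**Figure D5:**
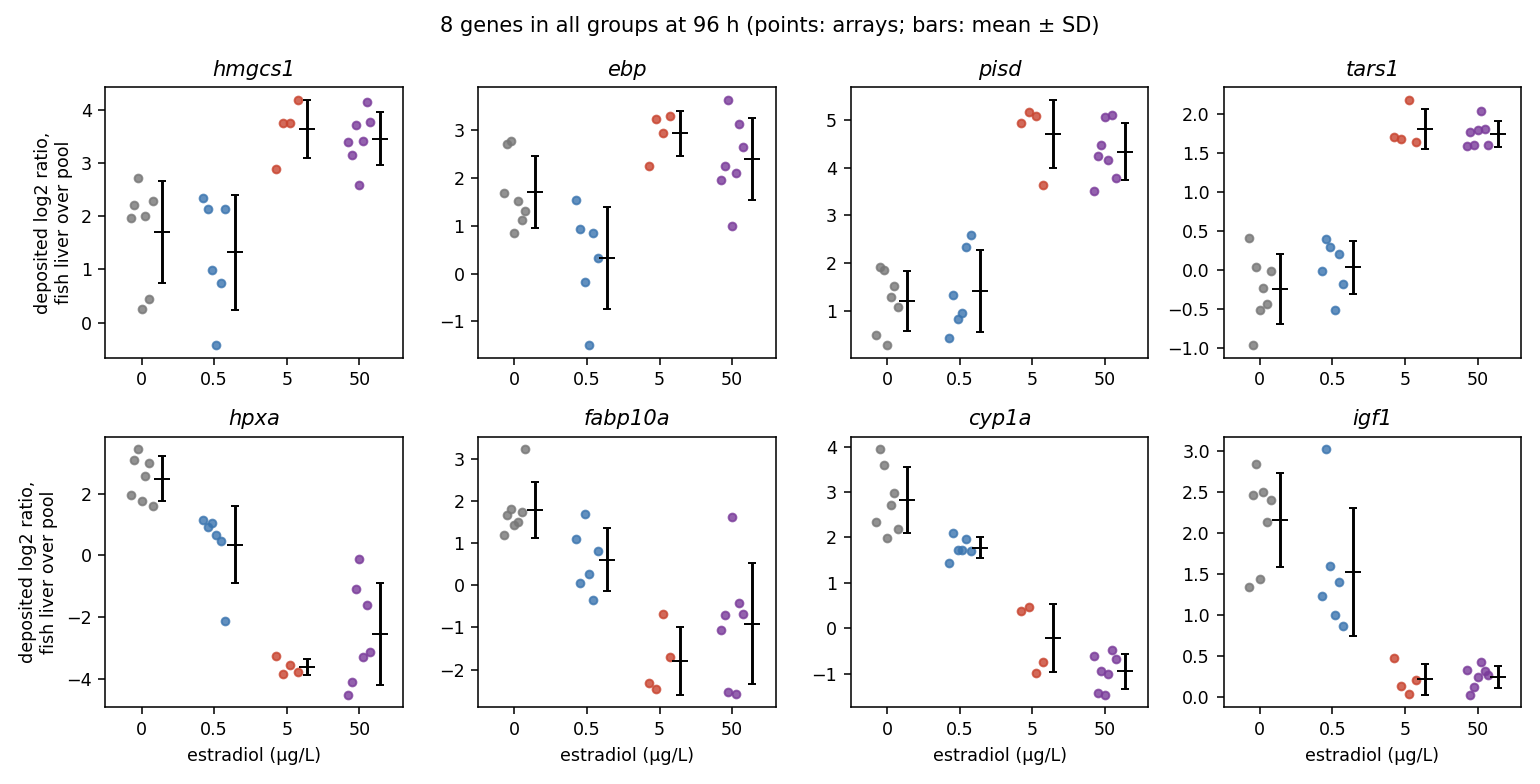
Deposited log2 ratios (fish liver over reference pool, y axis) of 8 genes in all groups at 96 h by estradiol dose (x axis; 0 marks untreated males); points are arrays (7, 6, 4 and 7 from left to right) and bars mean ± SD. For pisd and tars1 the 5 and 50 µg/L arrays lie above all others, and for ebp the 0.5 µg/L mean (0.33) is the lowest of the 4 groups. The tars1 probe shown is its brighter one, and the other gave -0.19 ± 0.28 between 5 and 0.5 µg/L.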

How the data were processed

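Scanner files were deposited for the 35 arrays of treated fish; per the file headers they give each spot's brightness (intensity) and local background in both channels and the percent of its pixels more than 2 SDs above background. The authors also deposited log2 ratios for all 50 arrays, normalized by a method not given in the sources used here; they equalled the value column of the 35 scanner files. These ratios ran with the raw Cy5 over Cy3 ratio (r of 0.915 to 0.989 across probes), which settled direction and scale; array medians lay between -0.04 and 0.03. Dyes were never swapped, so a dye effect cancels only between groups.

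Brightness was corrected with normexp (offset 50) and normalized by loess within arrays. Spots for which the authors gave no value were left out. Group means were fitted to all 35 treated arrays (6 groups) with limma 3.58.1 in R 4.3.3 (lmFit, eBayes; version 1.17.8 of data.table; plots with matplotlib 3.10.9 in Python 3.11.15), with Benjamini-Hochberg adjustment over 22046 probes with values on at least 3 arrays of each group. Differences are ± SE of the fit. Comparisons with untreated males used the deposited log2 ratios of 50 arrays, centred on each array's median, in the same kind of fit. Above background means that over 50% of a spot's pixels passed that mark, and saturated that its median pixel was at least 65000.

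Of 23232 probes 11724 have 1 gene symbol in the platform annotation; by the GRCz12tu gene list 3568 of these symbols were current, 8022 were updated from synonyms and 3 from accessions, and 131 were kept. The probe with the brightest mean Cy3 signal stands for its gene. Whether the annotation pairs each probe with the right gene was not tested. Named genes are the 12 largest rises and falls past the threshold (log2 size over 0.58), every vitellogenin and estrogen receptor, up to 4 members of each described list with the smallest p, and up to 4 genes per direction between times. Genes outside this rule (such as tat, ins, gcga, sst1.1, ppdpfa, eif2b1, eif4a1a, cycsb and further sterol and tRNA synthetase genes) were named after their values were seen. Members and lists were chosen with earlier results of these data known, so lists are described by counts and medians with no set test. In a simulated table (200 of 22046 probes given a dose difference at 96 h), 0, 50, 98 and 100% of changes of 0.5, 1, 2 and 3 (log2) were recovered, none in the wrong direction, with 10 false among 134 calls. Deviations of same-numbered arrays of both doses at 96 h correlated at -0.10, 0.54, 0.19 and 0.09 for replicates 1 to 4. Replicates 2 and 3 of 5 µg/L correlated best with their own number. Replicate 2 had the most saturated Cy5 spots of its group at 0.5 µg/L (155) and at 5 µg/L (117). Whether equal numbers mark a shared batch was not tested. No genome positions or sequences were used.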

Additional observations from a re-analysis of the deposited data

Results flagged for a closer look

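In the groups of 4 and 6 arrays, 17 of 250 sets of named-gene values held an array far from the rest of its group (Dixon's test; chance alone flags about 1 in 20). At 5 µg/L, replicate 4 was apart for pisd (3.73, others 4.96 to 5.16), acsl4a (4.29, others 3.74 to 3.81), cyp4v2a (-0.57, others 0.74 to 0.78), eci1 (-0.41, others -0.62 to -0.59) and vtg6 (0.32, others -0.20 to -0.11). Replicate 1 was apart for fdps (1.92, others 4.03 to 4.20), xbp1 (2.86, others 2.32 to 2.34) and atf4b (0.38, others 1.32 to 1.49), and replicate 2 for comtd1 (-0.017, others -1.08 to -0.95). Replicate 2 of 5 µg/L also had 117 saturated Cy5 spots, against 55 to 65 on the other 3 arrays.

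At 0.5 µg/L, replicate 6 was apart for hpxa (-2.23, others 0.44 to 1.17) and mat2aa (3.07, others 0.61 to 1.32), so the mean of hpxa at 0.5 µg/L was pulled down by 1 array. Replicate 2 was apart for igf1 (2.97, others 0.93 to 1.66), sqstm1 (0.62, others -0.76 to -0.56) and sdc4 (0.42, others -0.45 to -0.22). Replicates 3, 4 and 5 were apart for agxtb (2.90, others 2.24 to 2.47), farsa (0.22, others 0.82 to 1.04) and atp6v1ba (-0.92, others -0.64 to -0.58).

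With all arrays, limma's test of a change in the dose difference between 24 and 96 h was passed by aclya (2.43), fthl31 (1.92), sdc4 (1.59), lamp2 (1.54), cyp2k6 (-3.02), fkbp11 (-2.75) and mcm3 (-2.55). None of them passed in every fit with 1 array at 24 h left out. The highest adjusted p in those fits was 0.0584 for aclya and sdc4, 0.0696 for fthl31 and 0.0888 for lamp2. For cyp2k6, fkbp11 and mcm3 it was 0.0822, 0.051 and 0.112.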

How the results depend on the processing

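Of 514 probes that differed between 5 and 0.5 µg/L at 96 h, the count stayed within 1.5 times under these alternatives that keep all 10 arrays: only those 10 arrays in the fit (393, 338 of them shared), the deposited log2 ratios (528), no background correction (514), a normexp offset of 10 (460), median centring (495), average-quantile normalization (514, which leaves log ratios unchanged by construction), only probes above background (519), saturated spots left out (500), a trend with robust estimation (495), and, added after seeing the data, the 5 weak arrays of 50 µg/L left out (563) and spots without a deposited value kept (511). In the fit of only those 10 arrays, fdps, msmo1, cds2, chka, mat2aa, slc3a2b, slc38a2 and igf1, named by the rule above, did not pass. Nor did c8a, serpind1, eci1, copz1, atf6, herpud1, emc4 and atp6ap2. Their adjusted p-values by limma were 0.0510 (msmo1) to 0.166 (emc4), with 0.0695 for fdps. In the other direction apobb.1, hadh and pax9 passed there. Array weights gave 1042, with 508 shared. Leaving out 1 array at a time gave 303 to 550; the count was 306 without replicate 2 and 303 without replicate 3 of 5 µg/L, and 257 without both replicate 2 of 5 µg/L and replicate 4 of 0.5 µg/L, an alternative chosen after seeing the data.

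With a replicate block the count was 481 (426 shared) and that of the time comparison 16. Replicates 2 and 3 of 5 µg/L correlated best with their own number, and replicates 1 and 4 with numbers 5 and 6. What the numbers of the labels stand for is not given.

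The 25 probes whose dose difference changed with time were far less stable. The count was 25 without background correction and with average-quantile normalization, 26 for probes above background and 22 with all spots kept. It was 11 with only the arrays of both doses, 38 with deposited ratios, 11 with an offset of 10, 44 with median centring, 5 without saturated spots, 234 with array weights, 13 with trend and robust estimation, 71 without the weak arrays, 2 without both of those arrays, and 2 to 76 with 1 array of either time left out (76 without replicate 2 of 0.5 µg/L at 24 h; leaving out 24 h arrays was added after seeing the data); the cause was not tested.

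Over the named genes and these alternatives, 2764 values kept direction and call, 180 lost the call and 45 gained it. No called value turned direction, while fkbp11 (4 settings) and vtg6 (2), neither called, changed sign. Of the counts per list 2234 stayed within 1.5 times and 166 moved. The vesicle list gave 3 with only the 10 arrays, 6 with median centring and 18 with array weights, coagulation 3 and complement 2 with median centring, and the exocrine pancreas markers 9. The planned block for slide or scan run was not run, because the files used here name none. Groups of 6 and 4 arrays limit precision: simulated differences of 0.5 were not recovered.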
